A study of Mus musculus with 36 samples.

Results

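The insulin-like growth factor (IGF) genes described here are 8 in number: the ligands Igf1 and Igf2, the receptor Igf1r, and the binding proteins Igfbp2, Igfbp4, Igfbp5, Igfbp6 and Igfbp7. They were taken from the array table as every probe whose gene symbol is one of these names, which gave 19 of the 45281 probes and 8 of the 30854 gene symbols. Igfbp7 had 5 probes, Igf1 and Igfbp5 had 3 each, Igf1r, Igfbp2 and Igfbp4 had 2 each, and Igf2 and Igfbp6 had 1 each. The probes were read on 36 arrays that covered the prefrontal cortex (PFC), the nucleus accumbens (NAc, a ventral part of the striatum) and the hippocampus (HIP) of adult male C57BL/6J mice, 11 weeks of age, which were all given 10 daily intraperitoneal injections. The mice received vehicle, Cpd-60 at 45 mg/kg (a benzamide that inhibits the histone deacetylases HDAC1 and HDAC2), SAHA at 25 mg/kg (a hydroxamic acid inhibitor of broader range) or CI-994 at 10 mg/kg (a benzamide inhibitor). The injection volume was 7.5 mL/kg for vehicle and Cpd-60 and 5 mL/kg for SAHA and CI-994, and tissue was taken 1 h after the last dose. Each array held RNA of 2 mice pooled, and the 6 mice of a treatment made 3 pools that each gave all 3 regions. No group differed from another by genotype. The labels give the strain of all samples as C57BL/6J, while the study's methods, which give the age, name C57BL/6 mice bought from both Jackson and Taconic, and the supplier of each pool is not given. The second Cpd-60 pool carries 2 labels, mice 3 and 4 in its title and mice 1 and 2 in its description, and it was kept as a pool of its own. The main Cpd-60 values are also given without it.

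IGF1 and IGF2 are secreted peptides related to insulin. They act through the IGF1 receptor, a tyrosine kinase that signals through insulin receptor substrates to PI3 kinase and AKT, while the IGF2 receptor takes IGF2 up for degradation. The IGF binding proteins are secreted carriers that hold the peptides in the extracellular space, and proteases that cleave them set the peptides free. In adult brain Igf2 is known mainly from the choroid plexus, the meninges and blood vessels, and IGF signalling is known for its part in neuronal growth and survival.

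The median raw intensity lay between 82.2 and 108.3, the share of probes detected at a detection p of at most 0.01 lay between 31.9% and 43.3%, and arrays of a group correlated at 0.970 to 0.994. The 95th percentile of raw intensity lay between 349.9, for Cpd-60 pool 1 in the NAc, and 1079.7, for Cpd-60 pool 3 in the NAc, and in the HIP it was lowest for SAHA pools 2 and 3 (437.7 and 452). Values were quantile normalized before use. Each region lay on 2 BeadChips of its own with 6 arrays each, so region and BeadChip cannot be told apart. In each region pools 1 and 2 of vehicle and Cpd-60 lay on the first BeadChip and pool 3 on the second. For SAHA and CI-994 pool 1 lay on the first and pools 2 and 3 on the second. Comparisons of SAHA and CI-994 with vehicle were thus not balanced over BeadChips. Of 6 striatal marker genes 6 were higher in the NAc than in the PFC, and 4 of 5 cortical markers were lower in the NAc and in the HIP than in the PFC. Of the hippocampal list, Spink8, Prox1 and Dsp were higher in the HIP than in the PFC (log2 changes 3.02, 1.11 and 0.60). They were also higher in the HIP than in the NAc (adjusted p = 7.36e-07, 3.5e-05 and 0.000567 by limma). Wfs1 went the other way and was lower in the HIP than in the NAc (log2 change -1.79). The list's summed intensity, Wfs1 included, lay between 1554 and 1904 in the vehicle HIP and between 1630 and 1875 in the vehicle NAc. That sum did not separate the HIP from the NAc, and the list member Tdo2 was never detected.

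The first question was how the genes are set in each region without drug. Under vehicle the clearest difference was that of Igfbp6, which was high in the PFC and low in both other regions. The mean of Igfbp5 was highest in the HIP by each of its 3 probes, past the test against the NAc for all 3 and against the PFC for 2, Igfbp2 was low in the NAc, and Igf2 was lower in the NAc than in the PFC. The unit throughout is the log2 of the quantile normalized intensity, and a probe's brightness depends on its own sequence, so that levels can be compared between regions for a probe and not between probes. Of the 19 probes 15 passed the detection filter. The other 4 were Igfbp7 probes that never reached a detection p of 0.05 on any array. With limma and Benjamini-Hochberg adjustment over all 22606 probes tested, 7 of the 15 differed between HIP and PFC, 3 higher and 4 lower in the HIP, where 27.3% of all probes tested passed (13.4% higher and 13.9% lower). Between NAc and PFC 9 differed, all lower in the NAc, beside 20.8% of all probes (9.59% higher and 11.2% lower). Between HIP and NAc 5 differed, all higher in the HIP, beside 17.9% of all probes (8.27% higher and 9.6% lower). Without vehicle pool 2 the counts were 2, 1 and 2, and the differences that still passed were those of Igfbp6 against the PFC in both regions, of the Igfbp5 probe ILMN_1254358 in the HIP against both other regions, and of ILMN_2964324 between HIP and NAc.

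**Figure D1:**
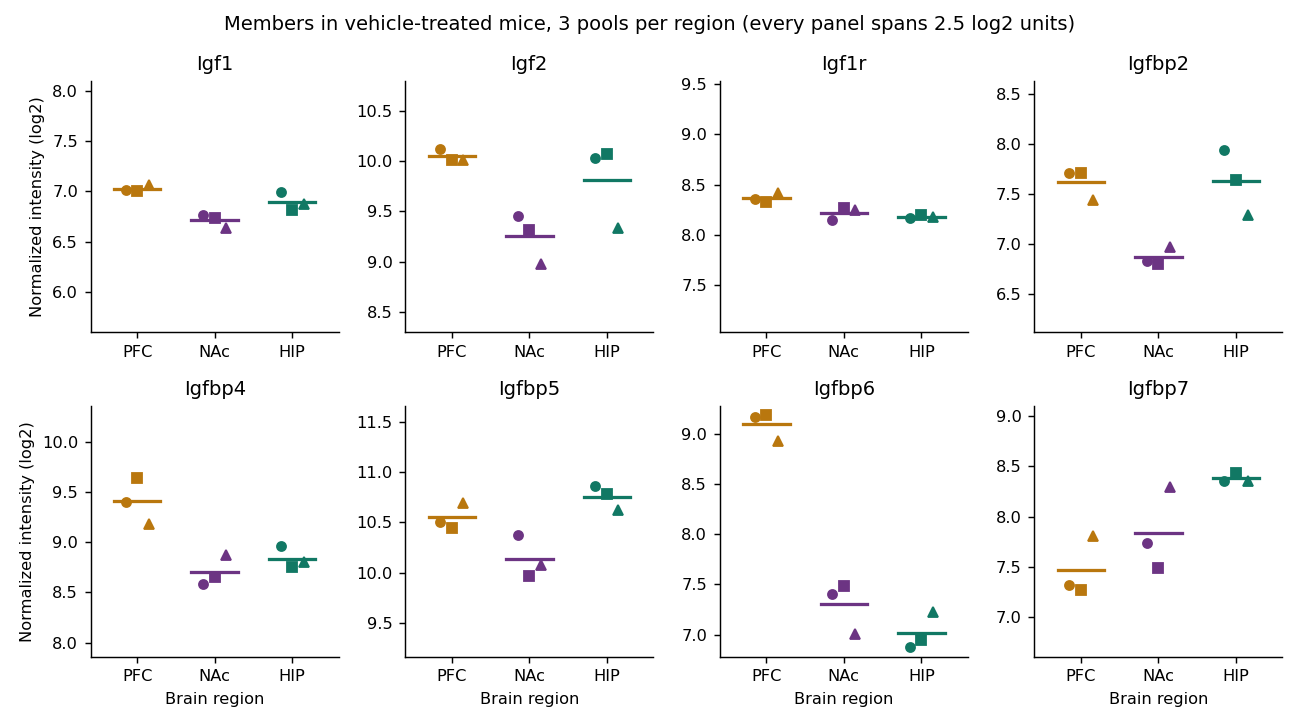
Levels of the 8 genes in the 3 vehicle pools of PFC, NAc and HIP, each gene by its brightest probe, on the y axis as log2 normalized intensity. Circles, squares and triangles are pools 1, 2 and 3, horizontal lines are means of the 3 pools, and each panel spans the same range of log2 units. The PFC pools of Igfbp6, at 8.92 to 9.18, lie above all NAc and HIP pools, which reach 7.49.

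Among the ligands, Igf1 lay close to the dim end of the scale. Its brightest probe, ILMN_2769884, read 7.02, 7.00 and 7.06 in vehicle pools 1, 2 and 3 of the PFC, 6.76, 6.74 and 6.63 in the NAc, and the HIP read 7.00, 6.81 and 6.87. The NAc pools lay below all pools of both other regions, and the NAc was lower than the PFC by limma (log2 change -0.32, adjusted p = 0.00806). With neqc, a normalization that subtracts background and so widens differences at dim probes, the change was -0.91. The other Igf1 probes passed in no pair of regions.

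Igf2 (ILMN_2597769) read 10.12, 10.01 and 10.02 in the vehicle PFC, 9.46, 9.32 and 8.98 in the NAc, while the HIP pools read 10.03, 10.07 and 9.33. HIP pool 3 lay among the NAc pools, while the PFC and NAc pools did not overlap. Igf2 was lower in the NAc than in the PFC by limma (log2 change -0.80, adjusted p = 0.0126). Marker genes of choroid plexus and leptomeninges, tissues known to express Igf2, also differed between regions. The summed intensity of the 8 choroid plexus markers lay between 4292 and 13949 in the vehicle HIP, between 1145 and 1745 in the PFC, and between 1375 and 1585 in the NAc, and 7 of 8 were higher in the HIP than in the PFC. The leptomeningeal list summed to between 1916 and 2312 in the PFC, between 1248 and 1338 in the NAc, and between 1686 and 2365 in the HIP. Of its 7 members tested 6 were lower in the NAc than in the PFC, and its member Col3a1 was never detected. Over all 36 arrays, with each region's mean subtracted, Igf2 correlated with the choroid plexus list at r = 0.55 (n = 36 arrays, which share pools of animals and BeadChips). The part of these tissues in the Igf2 levels was not tested. In bulk tissue, fewer cells of a type and less RNA per cell cannot be told apart.

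The receptor gene Igf1r varied little. Its brighter probe, ILMN_1249824, read 8.35, 8.32 and 8.41 in the vehicle PFC, 8.15, 8.27 and 8.24 in the NAc, and the HIP read 8.16, 8.20 and 8.18. The PFC pools were the highest of the 3 regions, by a margin that passed in limma for the HIP (log2 change -0.18, adjusted p = 0.0404). That call was lost with the pool of animals as a block (adjusted p = 0.0668) and with neqc (adjusted p = 0.151). The second probe, ILMN_1239663, read 7.36, 7.43 and 7.35 in the PFC, 7.00, 7.18 and 7.11 in the NAc, while the HIP pools read 7.09, 6.99 and 7.00. Compared with the PFC it was lower in the HIP (log2 change -0.35, adjusted p = 0.00365 by limma) and lower in the NAc (-0.28, adjusted p = 0.012), and with neqc these changes were -0.73 and -0.58.

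Igfbp6, a binding protein with a preference for IGF2, gave the widest difference between regions of the 8 genes. Its probe ILMN_2689790 read 9.17, 9.18 and 8.92 in the vehicle PFC, 7.41, 7.49 and 7.01 in the NAc, and the HIP read 6.87, 6.95 and 7.23. The PFC stood apart from both other regions, which overlapped each other. The level was 4.22-fold lower in the HIP than in the PFC (log2 change -2.08, SE 0.14, adjusted p = 1.1e-05 by limma) and 3.46-fold lower in the NAc (log2 change -1.79, adjusted p = 1.33e-05). With neqc the changes were -3.16 and -2.55. Of the cortical markers 4 of 5 were also lower in both other regions, and the part of cortical cells in this difference was not tested.

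The promoter of Igfbp6 is shown because this gene held the widest regional difference. It is given as the 250 bases before the transcription start in RefSeq (GRCm38.p6, plus strand, chr15:102143936-102144185), 5′ to 3′, with capitals marking the 6 letters TTTATA, which read TATAAA on the opposite strand. The promoter of Igfbp5 is chr1:72874866-72875115 on the minus strand, and its capitals mark TATTTAA. It is shown because this gene had the lowest unadjusted p of the 8 genes under Cpd-60 in a region. It also had the most tests there with an unadjusted p under 0.05 (2 of 9), and 0 of these passed after adjustment.
Igfbp6: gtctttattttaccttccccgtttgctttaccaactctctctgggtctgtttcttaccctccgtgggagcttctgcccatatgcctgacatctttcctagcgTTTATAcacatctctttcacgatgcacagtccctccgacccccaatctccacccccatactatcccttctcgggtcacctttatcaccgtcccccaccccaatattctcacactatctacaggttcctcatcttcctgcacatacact
Igfbp5: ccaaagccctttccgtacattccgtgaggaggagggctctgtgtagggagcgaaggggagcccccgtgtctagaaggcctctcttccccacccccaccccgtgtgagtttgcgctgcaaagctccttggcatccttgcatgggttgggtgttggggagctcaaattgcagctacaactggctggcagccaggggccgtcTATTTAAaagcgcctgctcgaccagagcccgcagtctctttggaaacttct

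Searched on both strands, TATAAA was present in 12.4% and TATTTAA in 4.18% of 32817 promoters of the same length, and the GC box GGGCGG was present in 32.7%. Neither Igfbp6 nor Igfbp5 held GGGCGG, nor did Igf1 or Igfbp4, whereas Igf1r held 2 copies and Igfbp7 held 4. The Igfbp6 and Igfbp5 windows held 7 and 10 CG dinucleotides, against 42 for Igf1r, 26 for Igfbp7, 22 for Igfbp4 and a median of 6 over all promoters. These matches describe the letters only. Igfbp5 and Igfbp2 are neighbouring protein-coding genes on chromosome 1.

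Igfbp5, a binding protein that is also held in the extracellular matrix, had its highest means in the HIP. Its brightest probe, ILMN_2682613, read 10.50, 10.45 and 10.70 in the vehicle PFC, 10.37, 9.96 and 10.08 in the NAc, while the HIP pools read 10.86, 10.79 and 10.63. The second, ILMN_1254358, read 9.77, 9.96 and 9.98 in the PFC, 9.58, 9.55 and 9.82 in the NAc, with HIP pools at 10.53, 10.62 and 10.63. The third, ILMN_2964324, read 9.81, 9.71 and 9.53 in the PFC, 9.31, 9.16 and 9.36 in the NAc, while the HIP pools read 9.99, 10.14 and 9.99. All 3 probes placed every HIP pool above every NAc pool, and ILMN_1254358 and ILMN_2964324 also placed every HIP pool above every PFC pool. The HIP exceeded the NAc by log2 changes of 0.62, 0.94 and 0.76 (adjusted p = 0.00371, 4.76e-05 and 0.000192 by limma). Against the PFC, ILMN_1254358 was higher in the HIP by 0.69 (SE 0.09, adjusted p = 0.000535) and ILMN_2964324 by 0.36 (adjusted p = 0.0133, and 0.20 over all 36 arrays), while ILMN_2682613 did not pass. The NAc was lower than the PFC by ILMN_2682613 (-0.41, adjusted p = 0.0273, or 0.0607 with neqc) and by ILMN_2964324 (-0.40, adjusted p = 0.00924).

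Igfbp2, a carrier of IGF2 made in brain from development onward, was lowest in the NAc. The probe ILMN_2930897 read 7.71, 7.71 and 7.44 in the vehicle PFC, 6.84, 6.81 and 6.97 in the NAc, and the HIP read 7.94, 7.64 and 7.29. The probe ILMN_1236788 read 7.75, 7.68 and 7.42 in the PFC, 6.79, 6.87 and 6.76 in the NAc, while the HIP pools read 7.60, 7.47 and 7.19. With both probes the NAc pools lay below all pools of the other regions, and the PFC and HIP overlapped. The NAc was lower than the PFC by log2 changes of -0.75 and -0.81 (adjusted p = 0.00496 and 0.000769 by limma), and the HIP was higher than the NAc by 0.75 and 0.61 (adjusted p = 0.00508 and 0.00423). With neqc the changes between NAc and PFC were -1.55 and -1.72, and those between HIP and NAc were 1.54 and 1.39. The probes correlated with the leptomeningeal list at r = 0.55 and 0.61 over the 36 arrays after subtraction of region means, a list that was itself lower in the NAc, and its part in the Igfbp2 levels was not tested.

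Igfbp4, a binding protein that inhibits IGF action, was read by 2 probes that differed. ILMN_2694955 read 9.40, 9.64 and 9.18 in the vehicle PFC, 8.58, 8.66 and 8.87 in the NAc, and the HIP read 8.96, 8.75 and 8.80. With this probe the PFC was the highest region, above the NAc (log2 change of the NAc -0.70, adjusted p = 0.00227 by limma) and the HIP (-0.57, adjusted p = 0.00645). ILMN_1258988 read 8.93, 9.27 and 9.51 in the PFC, 8.91, 8.87 and 8.76 in the NAc, while the HIP pools read 8.67, 9.15 and 9.09, with no pair of regions past the test.

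Igfbp7, a related secreted protein that binds IGFs weakly and is known from blood vessels, was read by 1 detected probe. ILMN_2764588 read 7.32, 7.27 and 7.81 in the vehicle PFC, 7.74, 7.49 and 8.30 in the NAc, and the HIP read 8.35, 8.44 and 8.35. The HIP pools were the highest and lay close together, while the NAc and PFC pools overlapped. The HIP was higher than the PFC by 0.91 (SE 0.19, adjusted p = 0.00704 by limma), and by 1.37 with neqc. After subtraction of region means the probe correlated with the interneuron marker list at r = 0.79 and with the cortical list at -0.72 (n = 36 arrays, which share pools and BeadChips). Values for the endothelial and mural lists are not given here. In the NAc the probe separated by BeadChip, at 7.29 to 8.16 on the first and 8.28 to 8.73 on the second. Subtraction of region means leaves that separation in these correlations. The part of these cells in its level was not tested.

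The second question was whether any drug shifted these genes. The 3 drugs were compared with the same vehicle arrays, so the comparisons are not independent, and their doses differed, so values are given side by side with no comparison between drugs. No probe of the 8 genes passed in any of the 9 comparisons made of drug against vehicle, 1 for each drug and region, after adjustment over all probes tested in limma. No other probe of the array did either (0% of all probes, 0 of 22156 in the PFC, of 23242 in the NAc and, for the HIP, of 23275). Without adjustment, at a p under 0.05, 8 of the 135 tests on the 8 genes passed, and all 135 log2 changes lay between -0.48 and 0.42, with 56 above 0 and 79 below. In the PFC 1 test passed under each drug, beside 5.19% of all probes for Cpd-60, 2.25% for SAHA and 3.98% for CI-994. In the NAc none passed, beside 4.77%, 2.05% and 1.99%. In the HIP 2 passed under Cpd-60, 2 under SAHA and 1 under CI-994, beside 5.26%, 9.37% and 3.24%.

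**Figure D2:**
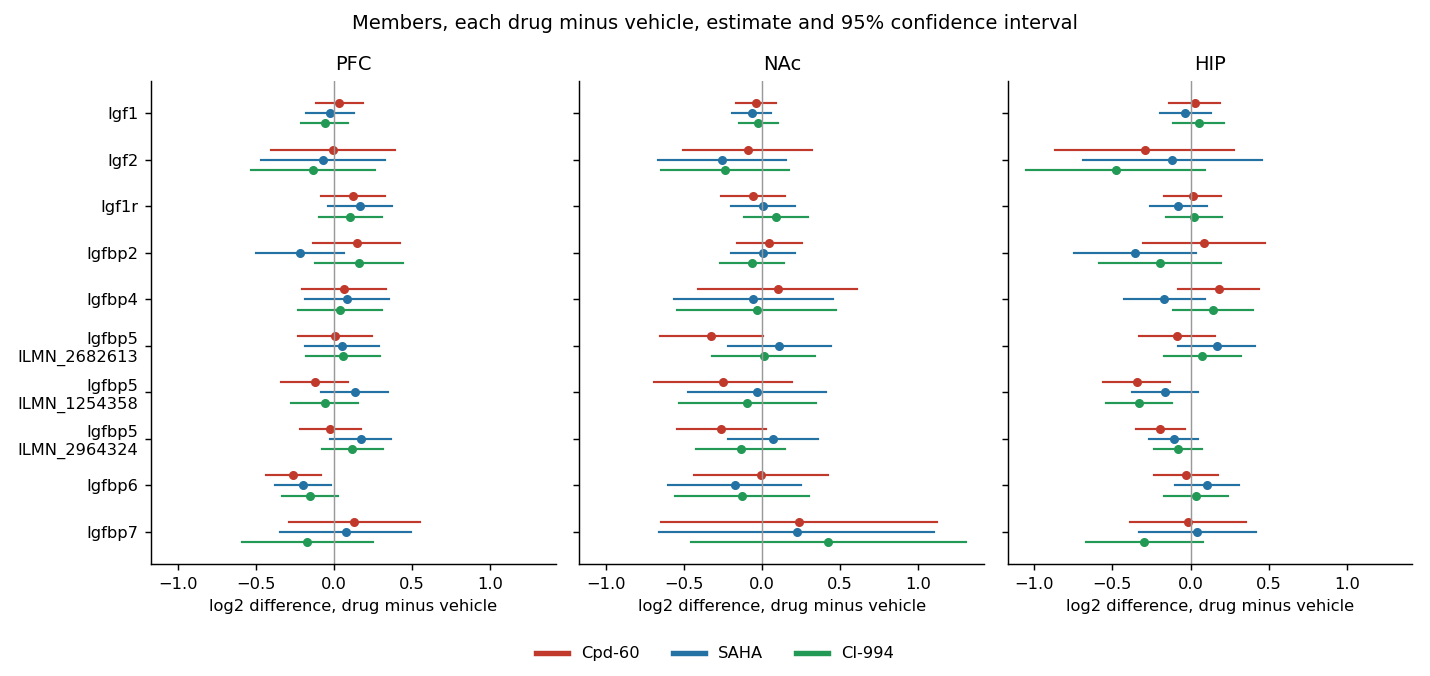
Drug minus vehicle in each region as log2 change on the x axis, with 95% confidence intervals from limma, for the brightest probe of each gene and the other Igfbp5 probes. The changes plotted lie within -0.48 to 0.42, and none passed after adjustment.

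The lowest Igfbp5 log2 change from vehicle was -0.35 under Cpd-60, -0.16 under SAHA and -0.33 under CI-994. In the HIP, ILMN_1254358 read 10.53, 10.62 and 10.63 under vehicle, 10.27, 10.12 and 10.36 under Cpd-60, 10.35, 10.46 and 10.48 under SAHA, and 10.44, 10.03 and 10.32 under CI-994. All 9 drug-treated pools lay below all 3 vehicle pools, a placing shared by 6.43% of all probes under Cpd-60, 10.8% under SAHA and 4.6% under CI-994. The log2 change was -0.35 for Cpd-60 (SE 0.10, unadjusted p = 0.00407, adjusted p = 0.838 by limma) and -0.33 for CI-994 (unadjusted p = 0.00555), neither past adjustment. Within the first and second BeadChip the Cpd-60 difference was -0.38 and -0.28, and that of CI-994 was -0.13 and -0.46. Without Cpd-60 pool 2 the Cpd-60 change was -0.28 (unadjusted p = 0.0219 by limma).

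The other Igfbp5 probes gave smaller differences in the HIP. ILMN_2964324 read 9.99, 10.14 and 9.99 under vehicle and 9.90, 9.80 and 9.84 under Cpd-60, with no overlap (log2 change -0.19, unadjusted p = 0.0189 by limma). Without Cpd-60 pool 2 this change was -0.17 (unadjusted p = 0.0599). ILMN_2682613 read 10.86, 10.79 and 10.63 under vehicle and 10.74, 10.43 and 10.85 under Cpd-60, which overlapped (-0.09, unadjusted p = 0.459). Its difference was -0.24 within the first BeadChip and 0.22 within the second, so the 3 probes did not give one picture.

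In the NAc, the Igfbp5 pools under Cpd-60 read 9.73, 9.74 and 9.97 for ILMN_2682613, beside 10.37, 9.96 and 10.08 under vehicle. ILMN_1254358 read 9.11, 9.42 and 9.66 under Cpd-60 beside 9.58, 9.55 and 9.82, and ILMN_2964324 read 8.76, 8.97 and 9.32 beside 9.31, 9.16 and 9.36. Every pair of groups overlapped. The log2 changes were -0.33, -0.25 and -0.26, and the unadjusted p in limma was 0.052, 0.233 and 0.0701. Pool 1, the lowest Cpd-60 pool with every probe, was the array with the lowest 95th percentile of raw intensity, and without it the changes were -0.29, -0.11 and -0.13. Within each BeadChip every Cpd-60 pool lay below every vehicle pool with all 3 probes. The first BeadChip held pools 1 and 2 of both groups and the second only pool 3 of each. The share of all probes placed this way is not given here, so nothing is read from the placing. The differences within the first and second BeadChip were -0.43 and -0.11, -0.30 and -0.16, and -0.37 and -0.04. Fitted with BeadChip as a block, the unadjusted p in limma was 0.0216, 0.0294 and 0.0346 (adjusted p = 0.562, 0.572 and 0.587). For that fit, too, the share of all probes past an unadjusted p under 0.05 is not given here. In the PFC, Cpd-60 and vehicle pools overlapped with all 3 probes, for example 10.49, 10.45 and 10.74 beside 10.50, 10.45 and 10.70 for ILMN_2682613. Across drugs and regions, 11 of the 27 Igfbp5 differences were above 0 and 16 below.

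**Figure D3:**
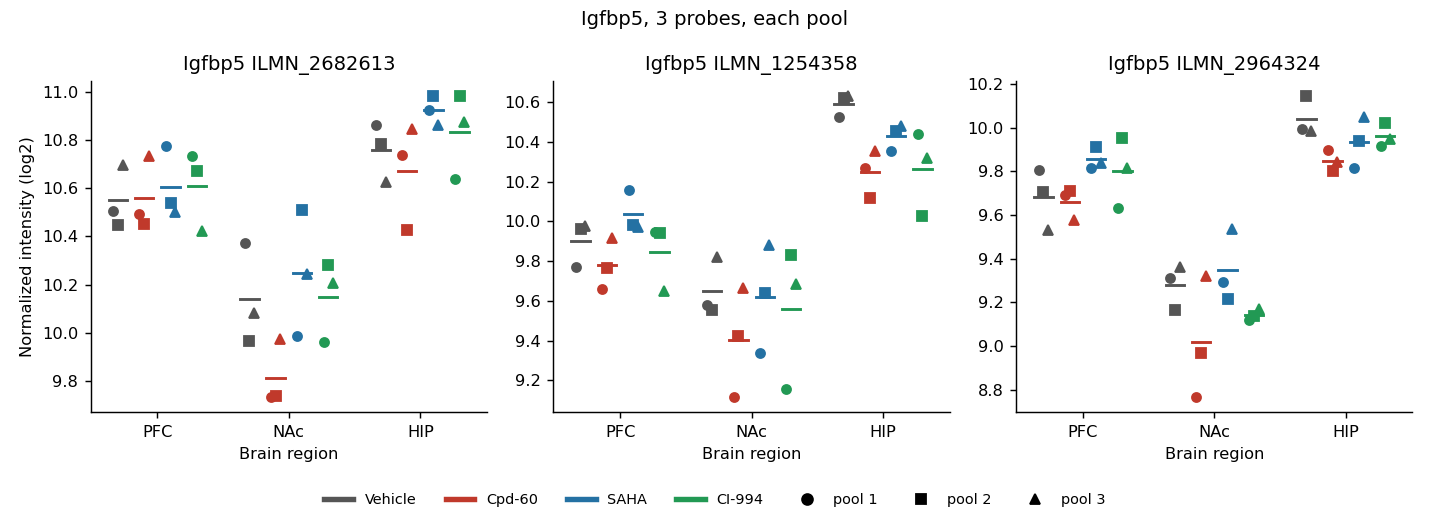
Levels of the 3 Igfbp5 probes in every pool, by region and treatment, on the y axis as log2 normalized intensity. Circles, squares and triangles are pools 1, 2 and 3, and horizontal lines are means of the 3 pools. In the HIP the ILMN_1254358 pools of the 3 drugs, at 10.03 to 10.48, lie below the vehicle pools at 10.53 to 10.63.

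Averaged over the 3 regions, Igfbp5 was nearest to a change under Cpd-60. The log2 change was -0.24 for ILMN_1254358 (SE 0.09, unadjusted p = 0.00909, adjusted p = 0.247 by limma with the pool as a random block), -0.16 for ILMN_2964324 (unadjusted p = 0.0124, adjusted p = 0.282) and -0.13 for ILMN_2682613 (unadjusted p = 0.0915). None passed after adjustment, where 0.571% of all 19447 probes tested did. At an unadjusted p under 0.05 the first 2 passed, of 15 probes, beside 10.6% of all probes (5.96% lower). The call turned on pool 3 of Cpd-60, the highest Cpd-60 pool of ILMN_1254358 in each region. Without it the changes were -0.32 (adjusted p = 0.0313) for ILMN_1254358 and -0.19 (adjusted p = 0.0412) for ILMN_2964324, and with the BeadChip as a block ILMN_1254358 passed alone (-0.24, adjusted p = 0.0425). The share of all probes that passed in these 2 settings is not given here. Without Cpd-60 pool 2 the changes were -0.22 for ILMN_1254358 and -0.15 for ILMN_2964324 (unadjusted p = 0.0332 and 0.0343 by limma), and -0.06 for ILMN_2682613 (unadjusted p = 0.45). Without Cpd-60 pool 1, ILMN_1254358 no longer passed without adjustment (-0.17, unadjusted p = 0.0688 by limma).

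Igfbp6 gave the other low values under drug, in the PFC. Its pools read 9.17, 9.18 and 8.92 under vehicle, 8.73, 8.88 and 8.89 under Cpd-60, 8.88, 8.81 and 8.999 under SAHA, and 8.99, 8.95 and 8.89 under CI-994. All Cpd-60 pools lay below all vehicle pools, as for 4.81% of all probes, and vehicle pool 3 stood lower than the other two. The log2 change was -0.26 for Cpd-60 (SE 0.08, unadjusted p = 0.00825, adjusted p = 0.886 by limma) and -0.20 for SAHA (unadjusted p = 0.0327). Within the first BeadChip these differences were -0.37 and -0.30, and within the second, which held vehicle pool 3, they were -0.03 and -0.02. With the methods' test on 27 arrays the p for Cpd-60 was 0.0711, and without Cpd-60 pool 2 the change was -0.28 (unadjusted p = 0.012 by limma). In the NAc and HIP the Igfbp6 pools of every drug overlapped those of vehicle.

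Igfbp2 values lay on either side of vehicle. Under Cpd-60 6 of its 6 differences were above 0, from 0.05 to 0.20, and none passed an unadjusted p under 0.05. In the PFC, ILMN_1236788 read 7.75, 7.68 and 7.42 under vehicle and 8.04, 7.81 and 7.76 under CI-994, all above vehicle, as for 5.76% of all probes (log2 change 0.25, or 0.40 with neqc, unadjusted p = 0.0401 by limma), with differences of 0.32 and 0.37 within the BeadChips. In the HIP, ILMN_2930897 read 7.94, 7.64 and 7.29 under vehicle, 8.04, 7.66 and 7.42 under Cpd-60, 7.54, 7.22 and 7.05 under SAHA, and 7.52, 7.42 and 7.36 under CI-994. The HIP values of this probe separated by BeadChip, at 7.52 to 8.04 on the first and 7.05 to 7.42 on the second. Averaged over regions, the difference of this probe under SAHA was -0.19 (unadjusted p = 0.0405), or -0.33 with neqc (unadjusted p = 0.0508) and -0.11 with the BeadChip as a block (unadjusted p = 0.0728). With the Igf1 probe ILMN_2647594 (-0.08, unadjusted p = 0.0169), which was not detected at a p of 0.05 on any SAHA array, it made 2 of 15 probes past that threshold under SAHA, beside 3.34% of all probes (2.03% lower).

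Among the ligands, Igf2 had a mean below that of vehicle in 9 of 9 comparisons, which share their vehicle arrays, with log2 changes from -0.48 to -0.00. None of these passed an unadjusted p under 0.05. The share of all probes below vehicle in 9 of 9 comparisons is not given here, so nothing is read from that count. In the HIP, Igf2 read 10.03, 10.07 and 9.33 under vehicle, 9.43, 9.51 and 9.61 under Cpd-60, 10.01, 9.69 and 9.39 under SAHA, and 9.94, 8.79 and 9.27 under CI-994. The groups overlapped, with the widest spread under CI-994. Averaged over regions, the CI-994 change was -0.28 (unadjusted p = 0.0487), the 1 of 15 probes past that threshold, beside 4.42% of all probes (2.2% lower). It was lost in 8 of the 12 fits that left out a pool, with changes from -0.41 to -0.20 and an unadjusted p of up to 0.215, and with the BeadChip as a block (unadjusted p = 0.0967). The dimmer Igf1 probes passed an unadjusted p under 0.05 under SAHA in the HIP, but one of them was mostly not detected. ILMN_1225565 read 6.75, 6.69 and 6.82 under vehicle and 6.85, 6.88 and 7.11 under SAHA (log2 change 0.20, unadjusted p = 0.0289), while ILMN_2647594 read 6.62, 6.71 and 6.75 under vehicle and 6.57, 6.58 and 6.52 under SAHA (-0.13, unadjusted p = 0.0415). ILMN_2647594 reached a detection p of 0.05 on 8 of 36 arrays and on 0 of the 3 SAHA arrays of the HIP, so that its SAHA level there cannot be told from background and no direction is read from it. With ILMN_1225565 all SAHA pools lay above vehicle, as for 8.45% of all probes. With neqc its change was 0.56, and without SAHA pool 3, a dim array, it was 0.11 (unadjusted p = 0.142 by limma). The brightest Igf1 probe differed there by -0.03.

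Igf1r, Igfbp4 and Igfbp7 gave no difference from vehicle at an unadjusted p under 0.05 in limma in any region under any drug. The 18 Igf1r differences ranged from -0.10 to 0.17 and the 18 of Igfbp4 from -0.30 to 0.18. The 9 of Igfbp7 ranged from -0.30 to 0.42, and its pools spread widely within groups, for example 7.29, 8.62 and 8.28 under SAHA in the NAc beside 7.74, 7.49 and 8.30 under vehicle. In the NAc this probe separated by BeadChip, at 7.29 to 8.16 on the first and 8.28 to 8.73 on the second, and so did Igfbp6 (7.38 to 7.50 and 6.80 to 7.20) and the Igfbp5 probe ILMN_1254358 (9.11 to 9.58 and 9.64 to 9.88). Whether a drug acted differently among regions was tested with an interaction term. No probe of the 8 genes passed for any drug, at an adjusted or an unadjusted p under 0.05, beside unadjusted shares of 1.97% of all probes for Cpd-60, 3.75% for SAHA and 1.3% for CI-994.

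Where a gene had several probes, their differences between arrays did not always run together. After subtraction of region means, the 2 Igfbp2 probes correlated at r = 0.81 over the 36 arrays and the 3 pairs of Igfbp5 probes at 0.47, 0.33 and 0.50. The Igf1r probes correlated at 0.25, and those of Igfbp4 at -0.40. Over 7532 pairs of probes of a gene on the array the median was 0.19 and 28.7% were below 0. Among the 1415 pairs with a mean log2 level of at least 8 the median was 0.43 and 20.7% were below 0, the class to which the Igfbp4 pair belongs. The array table does not say which transcripts each probe reads, and no cause was tested.

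**Figure D4:**
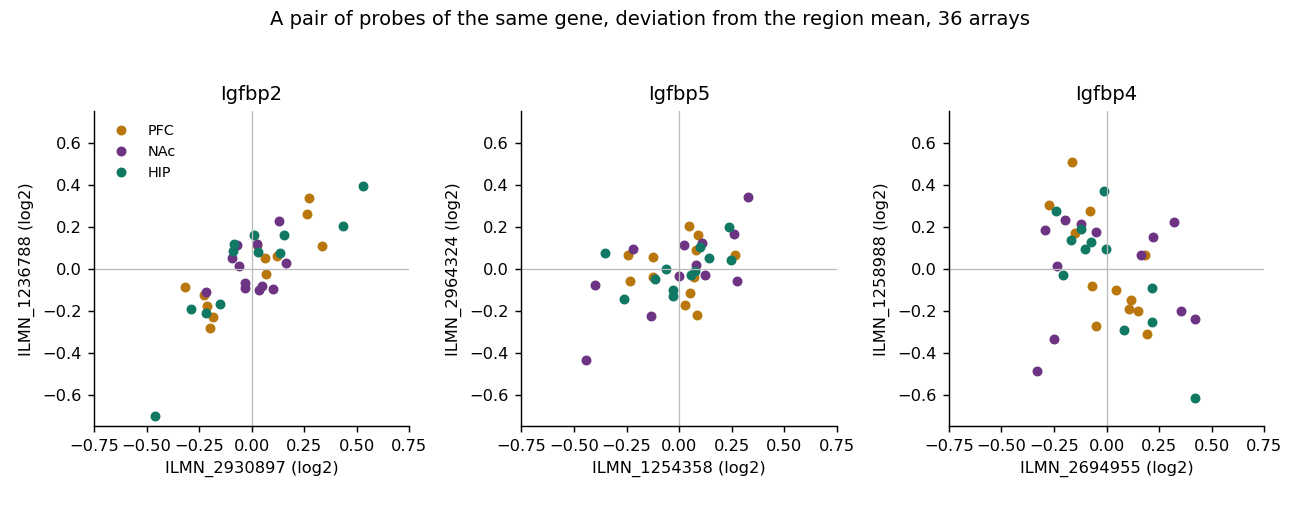
Pairs of probes of Igfbp2, Igfbp5 and Igfbp4 on the 36 arrays, as log2 normalized intensity with the mean of each region subtracted, 1 probe on each axis. The Igfbp2 pair runs together (r = 0.81), and the Igfbp4 pair runs in opposite directions (r = -0.40).

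The genes most like each member over the 36 arrays, after subtraction of region means, were listed as a description for arrays that share pools and BeadChips. Igfbp7 was most like Crbn (r = 0.91) and Igfbp4 most like Senp3 and Camk2a (both 0.87). Igfbp6 was most like 2810452K22Rik (0.83), Igfbp5 by its brightest probe most like Gpr23 (0.82), and Igfbp2 most like C030014I23Rik (0.80). Igf2 was most like Zfp219 (0.78), Slc4a2 (0.74) and Cd59a (0.73). The highest value for Igf1 was 0.64, with Atmin, and for Igf1r 0.70, with Golga2.

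Other genes of the IGF system were read from a list of 14 that holds the insulin genes, their receptors, further binding proteins and the proteases and stanniocalcins that act on binding proteins. Of the 9 tested in all regions, 1 rose under Cpd-60 when averaged over regions, and none under SAHA or CI-994, where 0% and 0.0823% of all probes passed. This was Htra1, a secreted serine protease known to cleave IGF binding proteins. Its probe ILMN_2746738 read 9.90, 9.96 and 9.88 in the vehicle HIP, beside 10.24, 10.77 and 10.30 under Cpd-60. The vehicle NAc read 9.55, 9.70 and 9.64, beside 10.15, 10.19 and 9.74 under Cpd-60. The vehicle PFC read 9.72, 9.60 and 9.50, beside 9.85, 10.27 and 9.77 under Cpd-60. All 9 Cpd-60 arrays lay above all vehicle arrays of their region. Of all probes, 4.87% were placed this way for PFC, 4.26% for NAc and 5.78% for HIP. The share placed this way in all 3 regions at once is not given here. Against all other arrays of a region, SAHA and CI-994 included, 2 of 3 Cpd-60 pools lay above for PFC, 2 of 3 for NAc and 3 of 3 for HIP.

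Over the 3 regions Htra1 was higher under Cpd-60 by a log2 change of 0.43 (SE 0.07, adjusted p = 0.00522 by limma), beside 0.571% of all probes that passed. That fit counted the 3 regions of a pool as nearly independent. For Htra1, however, Cpd-60 pool 2 was the highest Cpd-60 pool in each region with both probes. The SE and p can therefore understate the spread between pools of animals. The PFC, NAc and HIP changes were 0.35, 0.40 and 0.52 (unadjusted p = 0.00834, 0.00614 and 0.000489 by limma), none past adjustment within its region. The interaction test among regions did not pass (unadjusted p = 0.597 by limma). The second Htra1 probe, ILMN_2966104, gave 0.34 (adjusted p = 0.0708) and did not pass. With it 2 of 3 Cpd-60 pools lay above all vehicle pools in the PFC, 2 of 3 in the NAc and 3 of 3 for HIP, and its differences within the first and second BeadChip of the PFC were 0.43 and -0.12. For ILMN_2746738 the differences within the first and second BeadChip were 0.40 and 0.26 for PFC, 0.55 and 0.10 for NAc, and 0.58 and 0.42 for HIP. Leaving out each pool in turn gave values between 0.29 (without Cpd-60 pool 2, adjusted p = 0.0418) and 0.53, and the call was lost without vehicle pool 2 (0.44, adjusted p = 0.0771). Under SAHA and CI-994 the average changes were 0.08 and 0.01.

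**Figure D5:**
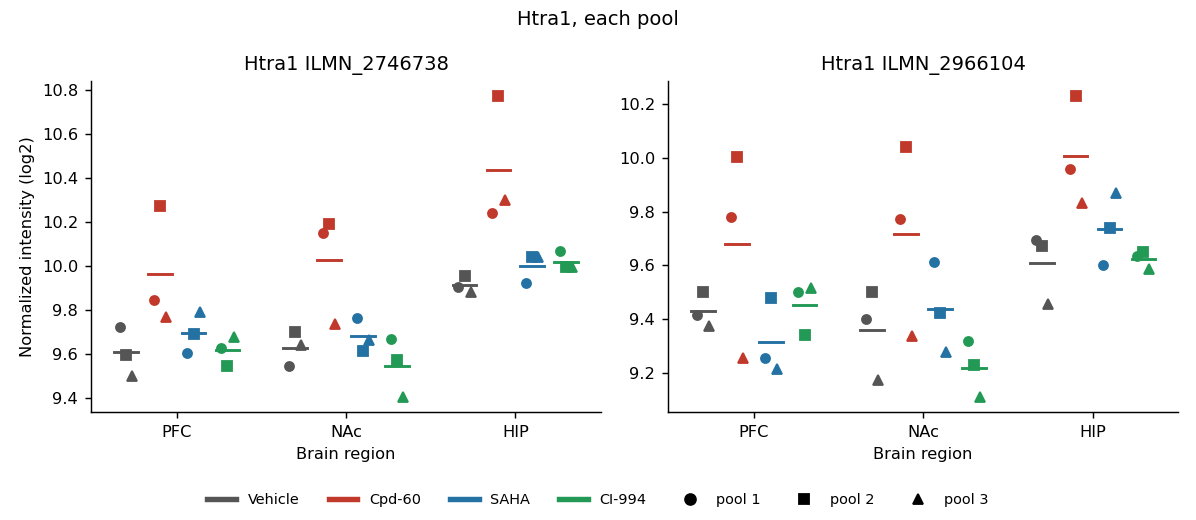
Levels of the Htra1 probe ILMN_2746738 in every pool, by region and treatment, on the y axis as log2 normalized intensity. Circles, squares and triangles are pools 1, 2 and 3, and horizontal lines are means of the 3 pools. In each region the 3 Cpd-60 pools lie above the 3 vehicle pools, in the HIP at 10.24 to 10.77 against 9.88 to 9.96.

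Under vehicle, 3 of the 10 genes of this list that were tested were higher in the HIP than in the PFC, beside 13.4% of all probes, namely Igfbpl1 (log2 change 0.28), Stc1 (0.29) and Htra1 (0.31). Igfbpl1 (0.43) and Stc1 (0.41) were also higher in the NAc than in the PFC, beside 9.59% of all probes. Between HIP and NAc, Htra1 (0.28) and Igfbp3 (0.30) were higher in the HIP, and Igf2r, the receptor that clears IGF2, was lower (-0.35), beside 8.27% and 9.6% of all probes. Downstream, of 24 genes of receptor signalling, 22 were tested under vehicle. Between HIP and PFC 3 were higher and 5 lower in the HIP, between NAc and PFC 3 were higher and 4 lower in the NAc, and between HIP and NAc 3 were higher and 6 lower in the HIP, beside 27.3%, 20.8% and 17.9% of all probes. The adaptor Grb14 was higher in the HIP than in the PFC by 1.14, the transcription factor Foxo1 was higher in the NAc by 1.27, and the adaptor Grb10 was higher in the NAc than in the PFC by 0.65 and lower in the HIP than in the PFC (-0.65). None of the signalling genes passed after adjustment under any drug in any region or on average. The lowest and highest of those past an unadjusted p under 0.05 were Irs2, an insulin receptor substrate, under CI-994 in the PFC (-0.56) and Pdpk1, the kinase upstream of AKT, under SAHA in the HIP (0.44).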

How the data were processed

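Gene expression was measured on Illumina MouseWG-6 BeadChips. The authors deposited linear intensity values per probe, neither background corrected nor normalized, together with a detection p-value for each. RNA extraction is given as Trizol with RNeasy mini columns in the labels and as an RNeasy Lipid Tissue kit in the study's methods. The 8 genes, the gene lists and the tests were chosen with earlier results of these data known.

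The 36 arrays were quantile normalized together, floored at 1 and log2 transformed in R 4.3.3 with limma 3.58.1 and statmod 1.5.0. A probe was tested where all 3 arrays of some group had a detection p of 0.2 or less, which is how the methods' threshold was read. Each drug was compared with vehicle in each region (12 arrays), averaged over regions and by region (36 arrays, pool of animals as a random block, consensus correlation -0.005), and regions were compared over the 9 vehicle arrays, all with lmFit and eBayes and Benjamini-Hochberg adjustment. As that correlation was near 0, the averaged fits counted the 3 regions of a pool as nearly independent. The number of arrays limits the precision. Every probe of the 8 genes was named. The brightest over all arrays stands first, and listed genes are named by size or test. Genes like a member are those of highest r over the 36 arrays. Promoters came from RefSeq, and 8 of 8 genes matched. Alternatives were neqc with an offset of 16, a stricter detection filter (0.01), no filter, BeadChip and replicate blocks, 27 arrays without CI-994, the methods' test, and each pool left out. The code was tested on simulated data.

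Cpd-60 pool 2 is named as mice 3 and 4 in its title and source, which were used, and as mice 1 and 2 in its description. By the description only 2 of the Cpd-60 pools would be separate animals. The regions of a pool come from the same mice, so the pool pairs them by origin, and deviations of a pool from its group means correlated between regions at means of -0.17 to 0.24. Pools of equal number in different treatments come from different mice. Pool 1 of every treatment lay on the first BeadChip of its region and pool 3 on the second, while pool 2 differed by treatment. Deviations of equal-numbered pools correlated between treatments at means of -0.09, for pool 1 in the PFC, to 0.53, for pool 3 in the NAc.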

Additional observations from a re-analysis of the deposited data

How the results depend on the processing

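No difference of the 8 genes that passed its threshold changed sign under the alternatives run. Some that had not passed did when a pool was left out, namely Igfbp5 under Cpd-60 by ILMN_2682613 in the PFC (from -0.08 to 0.08) and the HIP (from -0.17 to 0.04) and by ILMN_2964324 in the PFC (from -0.10 to 0.04). Among single probes, 242 of 280 values for a drug in a region, 74 of 95 averaged over regions and 136 of 168 between regions kept their side of the threshold and, where not past it, moved by less than 1 SD between replicates. These were values of probes past the threshold in the main fit and of all Igfbp5 probes under Cpd-60. For the drugs they include fits without a pool of another drug, which could not move the log2 change, so these shares overstate stability. Between regions, the 36 arrays in place of the 9 vehicle arrays gave 11, 14 and 9 passing probes (HIP against PFC, NAc against PFC, HIP against NAc) in place of 7, 9 and 5, and leaving out a vehicle pool gave 2 to 7, 1 to 10 and 2 to 8. The lowest counts, 2, 1 and 2, came without vehicle replicate 2. Igfbp6 passed against the PFC in both other regions without each vehicle pool. With the pool of animals as a replicate block the counts between regions were 6, 10 and 7. For the drugs, at an unadjusted p under 0.05, the 3 Cpd-60 tests in regions became 6 with the BeadChip as a block, 1 with the methods' test, and 3 to 7 with a pool left out (7 without Cpd-60 replicate 3). The 3 of SAHA became 5 with the replicate block, 0 with the methods' test, and 0 to 5 with a pool left out (0 without vehicle replicate 2, 5 without vehicle replicate 3 or CI-994 replicate 1). The 2 of CI-994 became 5 with the BeadChip as a block and 2 to 7 with a pool left out (7 without CI-994 replicate 1). Averaged over regions, the adjusted count for Cpd-60 went from 0 to 1 with the BeadChip as a block and 0 to 2 with a pool left out (2 without Cpd-60 replicate 3), and its unadjusted count from 2 to between 1 and 6 (6 again without Cpd-60 replicate 3, and 1 when vehicle replicate 3 or the first Cpd-60 pool was left out). The 2 of SAHA became 1 with neqc, 1 with the stricter detection filter, 1 with the BeadChip as a block, and 0 to 3 with a pool left out (0 without SAHA replicate 3). The 1 of CI-994 became 2 with the BeadChip as a block, 3 with the replicate block, and 0 to 2 with a pool left out (2 without CI-994 replicate 1). The cause was not tested. The share of all probes past the threshold in each of these settings is not given here. A change in these counts can therefore not be read as particular to the 8 genes. Same-numbered pools of different treatments were not paired by the labels, and their deviations in a region did not all correlate above 0.1, so that block is given for completeness. Signal over background limits the dim probes, since the Igf1 probe ILMN_2647594 reached a detection p of 0.05 on 8 of 36 arrays.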
